A study of Arabidopsis thaliana with 8 samples.

Results

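Footprints on 10 Arabidopsis genes that make, move and cleave sucrose were compared between root and shoot. The genes were taken from the table of 27416 genes by their locus identifiers, and the set was chosen with earlier results of these data known. They are the sucrose phosphate synthase SPS1F (AT5G20280), the proton-coupled sucrose transporters SUC1 (AT1G71880) and SUC2 (AT1G22710), the sucrose facilitators SWEET11 (AT3G48740) and SWEET12 (AT5G23660), the sucrose synthases SUS1 (AT5G20830), SUS3 (AT4G02280) and SUS4 (AT3G43190), and the neutral invertases CINV1 (AT1G35580) and CINV2 (AT4G09510). All 10 passed the filter on low counts.

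Ribosome profiling sequences the short mRNA fragments that ribosomes protect from RNase, so a count combines the amount of an mRNA with how densely ribosomes sit on it. The seedlings were of the Col ecotype, 4 days old, grown hydroponically with 1% sucrose in the medium and harvested 3 h after lights on. There were 4 root and 4 shoot libraries, 1 for each tissue in each of 4 polysome extraction buffers. Salt fell from buffer A (KCl 50 mM, MgCl2 25 mM) through B (40 and 20 mM) to C (30 and 15 mM), all at 200 mM Tris, and buffer D had the salts of B at 100 mM Tris. The libraries of a tissue stand in as its replicates, and no label says that they came from separate plants, so the p-values measure only the spread between these libraries, which may be technical. All 8 libraries share the sucrose in the medium, and no group without it was analysed here.

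Sucrose is made in the cytosol of photosynthetic cells, where sucrose phosphate synthase joins UDP-glucose and fructose 6-phosphate and a phosphatase then removes the phosphate. In leaves, SWEET11 and SWEET12 let sucrose out of phloem parenchyma cells, and SUC2 pumps it into the companion cells of the phloem, which carries it to roots and other sinks. There it is split either by sucrose synthase, which gives UDP-glucose and fructose in a reversible reaction, or by invertases, which give glucose and fructose and work in the cytosol, the vacuole or the cell wall.

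Root libraries held 1120218 to 3410266 counts and shoot libraries 3746348 to 4501213, and root in buffer D was the shallowest. Levels are given in CPM, a count divided by the library's total times its TMM factor, and fold changes are root minus shoot on the log2 scale ± SE. The 5 shoot markers stood at 0.464 to 1.78% of their shoot level in root, and the 5 root markers at 2.39 to 7.06% of their root level in shoot. These markers were chosen with earlier results of these data known, so the values describe the libraries and are no independent check of the tissues. The median gene had a log2 fold change of -0.12, and of 0.37 with library totals alone, so that scaling moved the median by 0.49 towards root. Gene lengths were not used here, so levels are compared between tissues and not between genes.

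Of the 10 genes, 6 were higher in shoot (SPS1F, SUC1, SUC2, SWEET11, SWEET12 and CINV2), 3 were higher in root (SUS1, SUS4 and CINV1) and SUS3 was not called. Over the 15664 genes tested by edgeR's quasi-likelihood test, 22.6% were called higher in shoot and 17.7% higher in root at an adjusted p under 0.05 (3537 and 2780 genes, and 2692 and 4734 with library totals alone). The 22.6% and 17.7% are the background for the list counts below that come from this fit. For list counts with library totals alone the background is the 2692 and 4734 of 15664 genes, with more genes on the root side. The synthase and all 4 transporters were higher in shoot, and the called cleavage genes were on both sides. The same 3 and 6 genes were called with library totals alone, which leaves those directions as they are. The median log2 fold change of the 10 genes was -1.78.

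**Figure D1:**
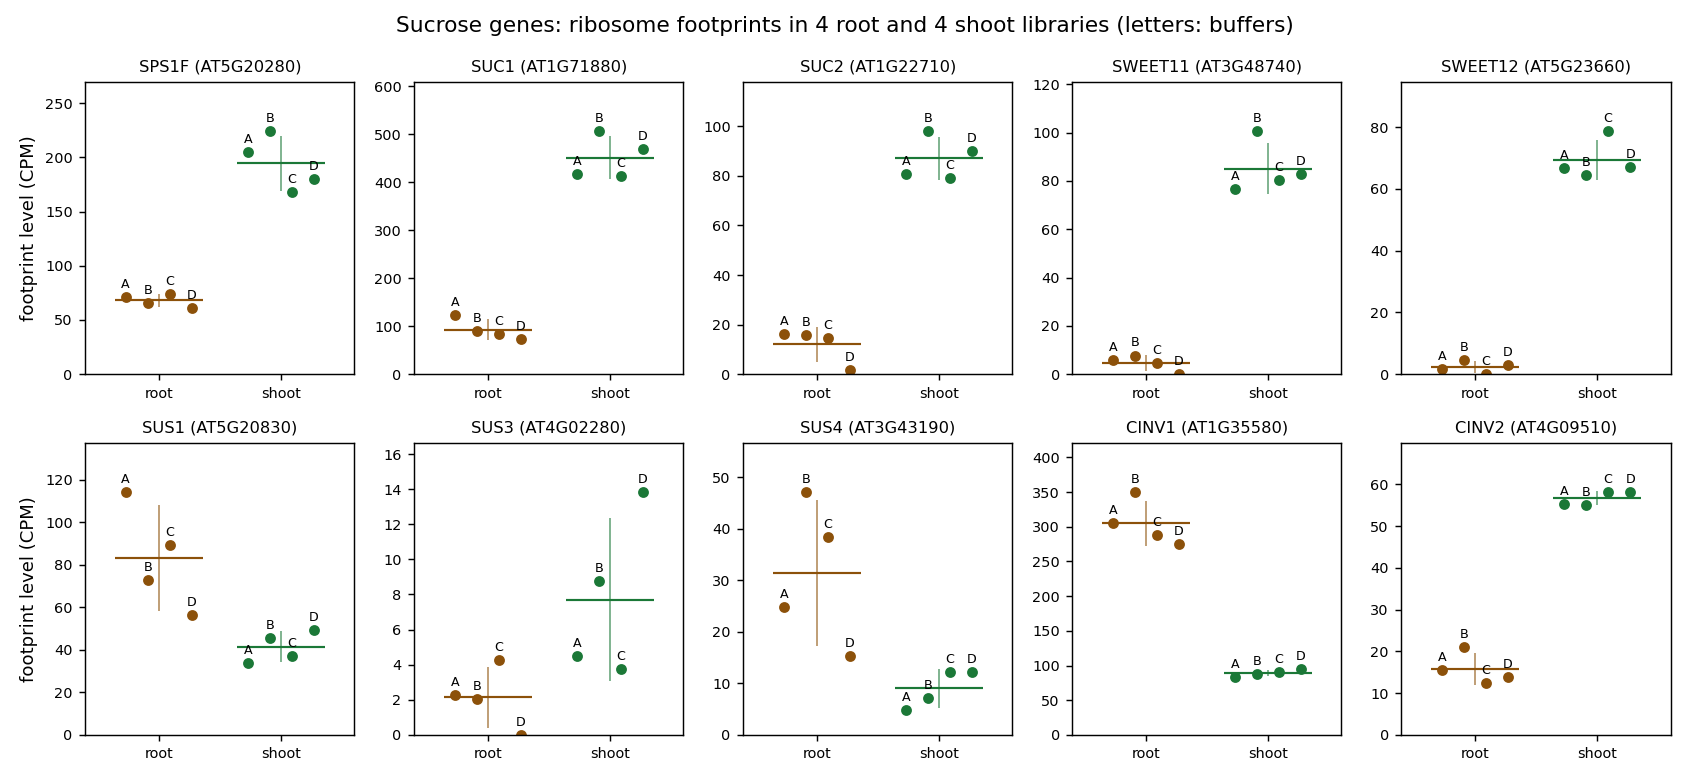
Footprint level of each of the 10 genes in CPM, each panel on its own linear axis from 0, with 1 point per library (4 root and 4 shoot libraries, lettered by buffer), the tissue mean as a horizontal line and ± SD as a vertical one. For SUS3 the root and shoot points overlap.

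SPS1F catalyses the first committed step of sucrose synthesis and was lower in root. Root levels were 71.2, 65.7, 74.3 and 60.6 CPM in buffers A, B, C and D. Shoot levels were 205, 224, 168 and 180 CPM in the same order. Every shoot library lay above every root library, with means of 194 ± 25.2 CPM in shoot and 68.0 ± 6.07 in root (SD, n = 4 libraries each), a 2.86-fold difference. This was a log2 fold change of -1.51 ± 0.15 (adjusted p = 1.89e-05). Because these are whole organs, fewer cells that use a gene and fewer footprints per cell cannot be told apart, here or for any gene below.

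The other genes of the synthesis list were on both sides. Besides SPS1F 9 were tested: 5 were higher in shoot, 1 was higher in root and 3 were not called, with a median log2 fold change of -0.93 beside -0.12 over all genes. With library totals alone 4 were higher in shoot and 2 in root. TPT, which exports triose phosphate from the chloroplast, had 42.6 ± 10.1 CPM in root and 1684 ± 132 in shoot (log2 fold change -5.29 ± 0.17, adjusted p = 2.87e-09). FBP, the cytosolic fructose 1,6-bisphosphatase, fell from 125 ± 9.48 CPM in shoot to 17.0 ± 3.61 in root. SPP2, a sucrose phosphatase, had 88.2 ± 15.7 CPM in shoot and 11.6 ± 5.14 in root.

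The synthase family itself was split. SPS4F went with SPS1F, at 31.2 ± 7.19 CPM in shoot and 3.41 ± 2.67 in root (log2 fold change -3.22 ± 0.55, adjusted p = 0.000787). SPS2F went the other way, at 86.7 ± 17.1 CPM in root and 15.8 ± 4.64 in shoot (2.45 ± 0.25, adjusted p = 2.1e-05). UGP1, which makes and uses UDP-glucose and so serves both synthesis and cleavage, had 392 ± 37.9 CPM in root and 397 ± 6.37 in shoot, and its log2 fold change of -0.02 ± 0.11 became 0.47 and was called higher in root with library totals alone. AT2G35840, listed among the synthesis genes, had a log2 fold change of -0.93 ± 0.23 (adjusted p = 0.00888), a call lost with that scaling.

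**Figure D2:**
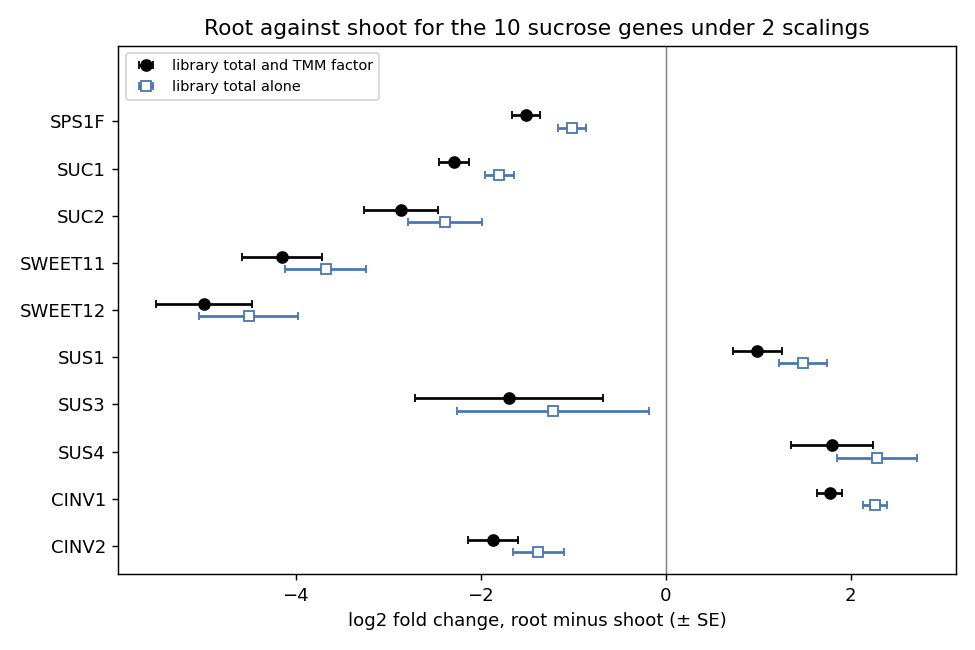
Root minus shoot log2 fold change of the 10 genes with its standard error, with TMM scaling and with library totals alone. The points of each gene lie on the same side of 0 under both scalings, SUS3 included, and only SUS3 was not called.

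The SWEET facilitators that release sucrose for phloem loading showed the widest difference among the 10 genes. SWEET11 had 6.02, 7.70, 4.73 and 0 CPM in root in buffers A to D, which were 24, 15, 10 and 0 counts. In shoot it had 76.7, 101, 80.3 and 82.8 CPM. The groups lay far apart, with a log2 fold change of -4.15 ± 0.43 (adjusted p = 2.14e-05) and root at 5.42% of the shoot mean.

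SWEET12 gave the same picture from even fewer root counts. It had 1.76, 4.62, 0 and 2.92 CPM in root, which were 7, 9, 0 and 4 counts, and 66.7, 64.5, 78.7 and 67.1 CPM in shoot. Root stood at 3.36% of shoot (log2 fold change -4.99 ± 0.52, adjusted p = 2.11e-05, and -5.57 without shoot in buffer B). The 0 of SWEET11 fell in buffer D and that of SWEET12 in buffer C, and a count of 0 allows up to 2.19 CPM and 1.42 CPM in those libraries (3 counts, counting error only).

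SUC2, the phloem-loading transporter of companion cells, had 16.3, 15.9, 14.7 and 1.46 CPM in root in buffers A to D and 80.9, 98.2, 79.0 and 90.1 CPM in shoot. Root in buffer D, with 2 counts, lay well below the other root libraries. The log2 fold change was -2.86 ± 0.40 (adjusted p = 0.000187), and -2.45 without that library.

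SUC1, a transporter also known from pollen and root, had 123, 90.3, 82.9 and 73.8 CPM in root and 417, 507, 412 and 469 CPM in shoot. Its lowest shoot library was thus more than 3 times its highest root library. Its log2 fold change was -2.29 ± 0.16 (adjusted p = 1.15e-06). The next gene on the chromosome, SUC5, is a close relative, and reads that match both may have been counted at either. It had 0 counts in all 4 root libraries and 16.6 ± 3.38 CPM in shoot, at least 51.9-fold higher in shoot against a floor of 3 counts over the 4 root libraries together, and at least 30.0-fold without root in buffer A.

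Across the SUC family, 5 of 9 genes were tested, of which SUC1, SUC2 and SUC5 were higher in shoot and none was higher in root. SUC3 (log2 fold change 0.57 ± 0.50, adjusted p = 0.414) and SUC4 (-0.50 ± 0.55, adjusted p = 0.525) were not called. Of 17 SWEET genes 9 were tested, with 4 higher in shoot, 3 higher in root and 2 not called, and a median of -2.66.

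SWEET genes thus went both ways. SWEET1, a glucose facilitator, had 0 counts in root and 27.5 ± 6.54 CPM in shoot, at least 86.9-fold higher by the same pooled floor, and at least 50.1-fold without root in buffer A. SWEET15 was higher in shoot, with a log2 fold change of -4.36 ± 0.76 that became -5.54 and -5.59 without root or shoot in buffer B. SWEET16, a facilitator of the vacuolar membrane, was higher in root, at 42.2 ± 16.2 CPM against 3.68 ± 1.67 (3.49 ± 0.37, adjusted p = 2.64e-05). SWEET14 (4.33 ± 0.76, and 3.71 and 3.70 without root or shoot in buffer B) and SWEET13 (2.14 ± 0.61, adjusted p = 0.0159) were higher in root too, and the call of SWEET13 was lost without the root or shoot library of buffer A or C. SWEET17, also vacuolar, had 28.4 ± 4.61 CPM in root and 28.9 ± 4.36 in shoot.

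The phloem markers, a list that mixes genes of several phloem cell types, were called on both sides. Their summed level was 295 to 349 CPM over the root libraries and 345 to 378 CPM over the shoot libraries, none of the 10 was at 0 in either tissue, and 3 were higher in shoot, 4 higher in root and 3 not called. The 4 became 1 or 2 without root or shoot in buffer A, B or C, and the 3 became 1 with library totals alone. AKT2, a potassium channel of the phloem, had 1.17 ± 1.36 CPM in root and 55.7 ± 5.39 in shoot (-5.53 ± 0.59, adjusted p = 2.76e-05, and -6.46 and -6.48 without root or shoot in buffer A). AHA3, a proton pump of companion cells, was far less shifted (-0.47 ± 0.14, adjusted p = 0.0185, a call lost without root or shoot in buffer C and, at 0.02, with library totals alone). SEOR1, a sieve element filament protein, was higher in root (0.65 ± 0.18, adjusted p = 0.0153), a call lost without root A, B or C or shoot A. FTIP1 (1.86 ± 0.44), CALS7 (1.97 ± 0.67) and SEOa (0.73 ± 0.24) were also called higher in root and PP2-A1 (-1.30 ± 0.40) higher in shoot, and of these 4 only FTIP1 kept its call in all 15 alternatives. The part of phloem content in the transporter differences was not tested.

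SUS1 and SUS4 of the sucrose synthases had higher footprint levels in root. SUS1 had 114, 72.9, 89.5 and 56.2 CPM in root in buffers A to D and 33.7, 45.5, 37.0 and 49.4 CPM in shoot. The groups did not overlap, but the margin was narrow in buffer D, where root and shoot were closest. The log2 fold change was 0.99 ± 0.26 (adjusted p = 0.0118), and it lost its call without the root or shoot library of buffer A or of buffer C (0.70 to 0.88, adjusted p 0.0571 to 0.0853).

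SUS4, the nearest relative of SUS1 and like it known to respond to low oxygen, had 24.8, 47.2, 38.3 and 15.3 CPM in root and 4.74, 7.07, 12.1 and 12.3 CPM in shoot. The groups did not overlap either, and root in buffer D was again the lowest. The log2 fold change was 1.80 ± 0.44 (adjusted p = 0.00743), and 1.46 without root in buffer B (adjusted p = 0.0639).

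SUS3 was not called. It had 2.26, 2.05, 4.26 and 0 CPM in root, from 22 counts in all, and 4.48, 8.77, 3.73 and 13.9 CPM in shoot. The groups overlapped, since the lowest shoot library lay below the highest root library. The log2 fold change was -1.70 ± 1.02 (adjusted p = 0.222). Its variance between libraries was 9.41 times that of counting alone in shoot and 2.21 times in root.

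Of the 6 sucrose synthase genes 5 were tested. Beside 17.7% of all genes tested, 4 of them were called higher in root. Besides SUS1 and SUS4 these were SUS5 (2.05 ± 0.73, adjusted p = 0.0444) and SUS6 (2.41 ± 0.59, adjusted p = 0.00773), both known from sieve elements. The count rested on few libraries: it was 1 without root in buffer A, B or C and 2 without shoot in buffer A or C. SUS5 lost its call in 8 of 15 alternatives, and SUS6 without root A, B or C.

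Other genes known from the low-oxygen response were measured beside these. Their summed level was 92.9 to 133 CPM in root and 402 to 595 in shoot, none of the 11 was at 0 in either tissue, and of 9 tested 1 was higher in root, 1 was higher in shoot and 7 were not called, where 59.7% of all genes tested were not called (2 in root and 1 in shoot with library totals alone). ADH1, alcohol dehydrogenase, was the one in shoot, at 389 ± 79.3 CPM there and 10.6 ± 10.7 in root (-5.20 ± 0.42, adjusted p = 3.53e-06). Without ADH1 the other 10 genes summed to 90.3 to 126 CPM in root and 80.4 to 134 in shoot. PDC2, pyruvate decarboxylase, was the one in root (1.35 ± 0.39, adjusted p = 0.0188), and lost its call without root A, C or D or shoot A or D. The part of oxygen supply in the SUS1 and SUS4 values was not tested.

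The cytosolic neutral invertases CINV1 and CINV2 moved in opposite directions. CINV1 had 306, 351, 289 and 275 CPM in root in buffers A to D and 84.1, 88.3, 89.9 and 94.5 CPM in shoot. CINV2 had 15.6, 21.0, 12.3 and 13.9 CPM in root and 55.4, 55.2, 58.2 and 58.3 CPM in shoot. Root was higher in all 4 buffers for CINV1 and lower in all 4 for CINV2, with no overlap for either. The log2 fold change was 1.77 ± 0.13 for CINV1 (adjusted p = 2e-06) and -1.87 ± 0.27 for CINV2 (adjusted p = 0.000219).

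Among 9 neutral invertase genes 7 were tested: 2 were higher in root, 3 were higher in shoot and 2 were not called, with a median of -0.63. A/N-INVE, the chloroplast form, had 82.3 ± 7.26 CPM in shoot and 22.0 ± 2.24 in root (-1.91 ± 0.22, adjusted p = 4.22e-05). A/N-INVC was higher in root (4.41 ± 1.12, adjusted p = 0.00921), a value that became 5.78 and 5.73 without root or shoot in buffer C and 3.72 and 3.62 without root or shoot in buffer D. A/N-INVD was higher in shoot (-2.27 ± 0.74, adjusted p = 0.0313), a call lost in 7 of 15 alternatives, namely with library totals alone and without root or shoot in buffers A, B and C. With library totals alone 3 were higher in root and 2 in shoot.

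The acid invertases and their inhibitors gave 3 higher in root, 1 higher in shoot and 3 not called, of 7 tested among 10. CWINV1, the cell wall invertase, had 391 ± 27.6 CPM in root and 103 ± 8.12 in shoot (1.92 ± 0.13, adjusted p = 7.85e-07). AT1G62660, listed among the acid invertases, had 1197 ± 143 CPM in root and 240 ± 22.8 in shoot (2.32 ± 0.10). CWINV6 had 8.99 ± 6.11 CPM in root and 0 counts in shoot, at least 35.4-fold higher by a floor of 3 counts over the 4 shoot libraries together. With 1 library left out this bound ran from 24.5-fold (without root in buffer B) to 53.1-fold (without root in buffer A). C/VIF2, an invertase inhibitor, was the one higher in shoot, at 94.4 ± 22.2 CPM against 16.4 ± 7.97 (-2.61 ± 0.31). VI2, a vacuolar invertase, was at 0.15 ± 0.15 (adjusted p = 0.468), but was called higher in root with library totals alone (0.65, adjusted p = 0.00377).

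Genes that handle the hexoses released by cleavage were more often called higher in root than in shoot. Of 15 listed genes 12 were tested, with 7 higher in root, 4 higher in shoot and 1 not called, and a median of 0.80. Over all genes tested 17.7% were called higher in root and 22.6% higher in shoot. The 7 became 4 without root in buffer B. With library totals alone 8 were higher in root and 2 in shoot, beside 4734 and 2692 of all 15664 genes tested. TMT1, a monosaccharide transporter of the vacuolar membrane, had 387 ± 30.8 CPM in root and 58.5 ± 8.54 in shoot (2.73 ± 0.14, adjusted p = 9.91e-08), and the uptake transporter STP1 was higher in root (1.02 ± 0.23, adjusted p = 0.0042). STP4, of the same family, was also higher in root (0.80 ± 0.16, adjusted p = 0.00224). AT2G31390, listed among the hexose genes, had 709 ± 51.9 CPM in root and 132 ± 15.7 in shoot (2.43 ± 0.11, adjusted p = 3.3e-08), while AT1G66430 was higher in shoot (-2.81 ± 0.21, adjusted p = 1.57e-06). AT1G06030 (2.37 ± 0.64), AT5G51830 (1.07 ± 0.32) and STP7 (0.80 ± 0.28) were called higher in root but lost their calls in 2, 4 and 8 of 15 alternatives. TMT2 was called higher in shoot (-0.80 ± 0.23, adjusted p = 0.0154), a call lost with library totals alone and without root or shoot B or C. STP13 was higher in shoot (-1.48 ± 0.28, adjusted p = 0.00178). HXK1, the glucose-sensing hexokinase, was at -0.03 ± 0.13 (adjusted p = 0.868), though library totals alone changed its call, and HXK2 was higher in shoot (-1.01 ± 0.26, adjusted p = 0.00978), a call that scaling removed.

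**Figure D3:**
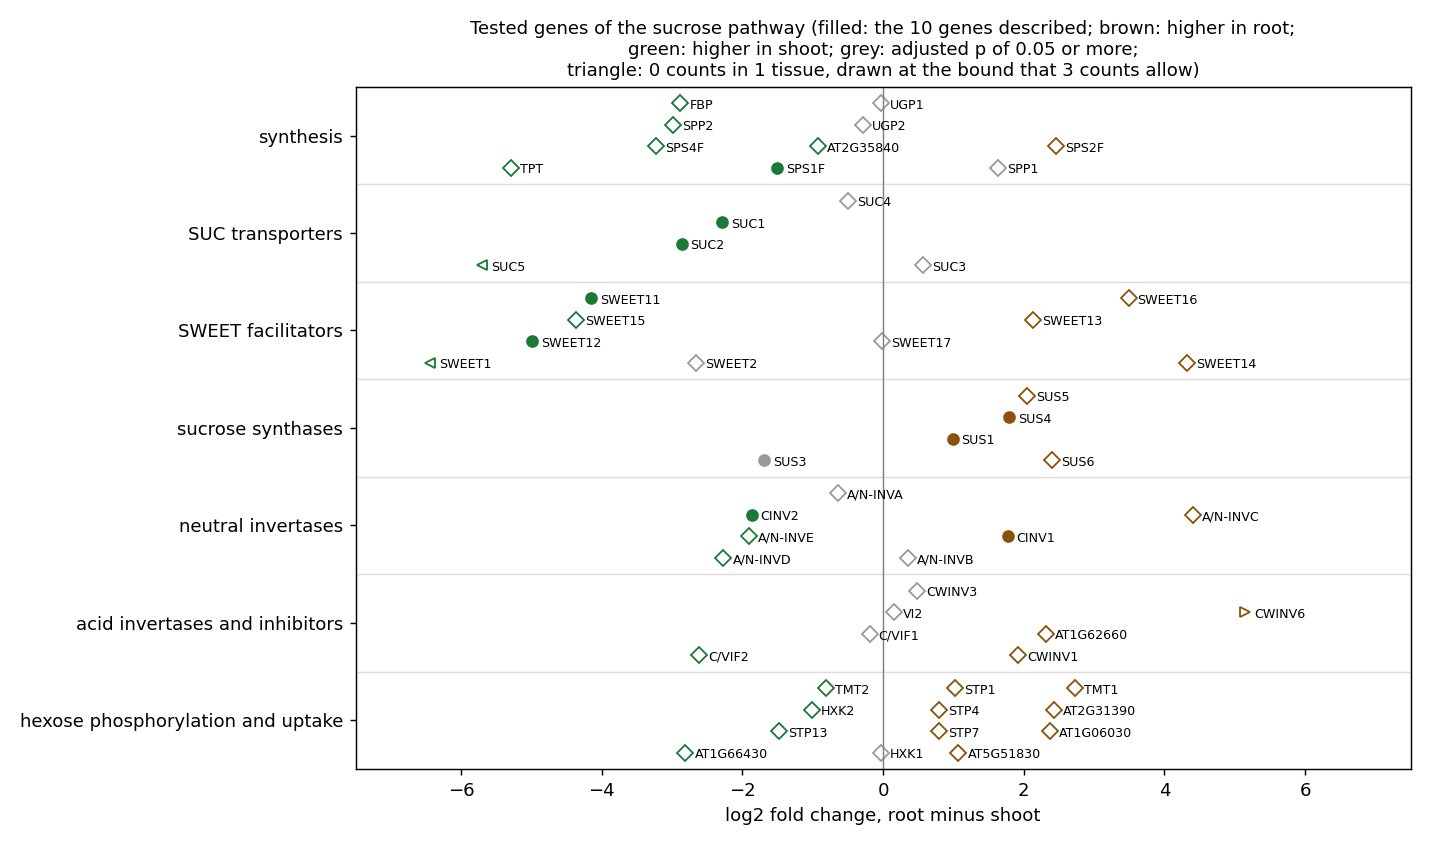
Root minus shoot log2 fold change of every tested gene of the sucrose pathway lists, grouped by role and coloured by call. Of the tested synthesis genes 6 were called higher in shoot and 1 higher in root, and of the hexose genes 4 and 7. Triangles mark genes with 0 counts in 1 tissue, drawn at the bound from 3 counts over that tissue's libraries together.

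Over all 7 lists together, 78 genes with 55 tested, 20 were higher in root, 21 were higher in shoot and 14 were not called, with a median of -0.03. With library totals alone the counts were 24 and 17 and the median 0.46, beside 4734 and 2692 genes and a median of 0.37 over all 15664 genes tested. With SPS1F and the other members counted in their lists, medians were negative for synthesis (-1.22), SUC transport (-2.29), SWEET facilitators (-2.66) and neutral invertases (-0.63). They were positive for sucrose synthases (1.80), acid invertases and inhibitors (0.48) and hexose handling (0.80). The SUC and sucrose synthase medians are the values of SUC1 and SUS4 themselves, over 5 tested genes each.

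For paralogs, the share of a pair's counts needs no scaling between libraries. Reads that match both genes of a close pair may have been counted at either, which the share does not correct. For 5 pairs it was compared by a two-sided exact permutation test with adjustment over the pairs. That test takes the libraries as independent and leaves out the pairing by buffer. The widest difference was in the invertases. CINV2 made up 4.85 ± 0.64% of the CINV1 and CINV2 counts in root and 38.9 ± 0.72% in shoot (SD, n = 4 libraries each), a difference of -34.1 points (exact p = 0.0286, adjusted 0.0477). Every root library lay above every shoot library for CINV1 and below for CINV2, so this share was bound to separate. Its p-value restates those differences and is no further support. The value 0.0286 is the smallest that 4 libraries against 4 can give. Alone at that value, a pair would not pass 0.05 after adjustment over the 5 pairs. The adjusted 0.0477 thus rests on the SUS3 and SUC2 pairs, given next, standing there too. Their adjusted values rest in turn on the CINV2 pair.

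SUS3 made up 2.31 ± 1.88% of SUS1 and SUS3 counts in root and 14.7 ± 5.58% in shoot, again without overlap (exact p = 0.0286, adjusted 0.0477). SUC2 made up 10.9 ± 6.18% of SUC1 and SUC2 counts in root, over a range of 1.94 to 15.0%, and 16.2 ± 0.09% in shoot, with the same p-values. Without root in buffer D the SUC2 difference shrank from -5.26 to -2.27 points, and 3 libraries against 4 cannot go below 0.0571. The SUC2 share in shoot kept within 16.1 to 16.3% over the 4 buffers.

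The other pairs overlapped. SUS4 made up 27.1 ± 9.58% of SUS1 and SUS4 counts in root and 17.6 ± 5.79% in shoot (exact p = 0.143, adjusted 0.179). SWEET12 made up 45.0 ± 4.40% of the SWEET11 and SWEET12 counts in shoot, while in root its share ran from 0 to 100%, since so few counts remained there (exact p = 0.857).

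**Figure D4:**
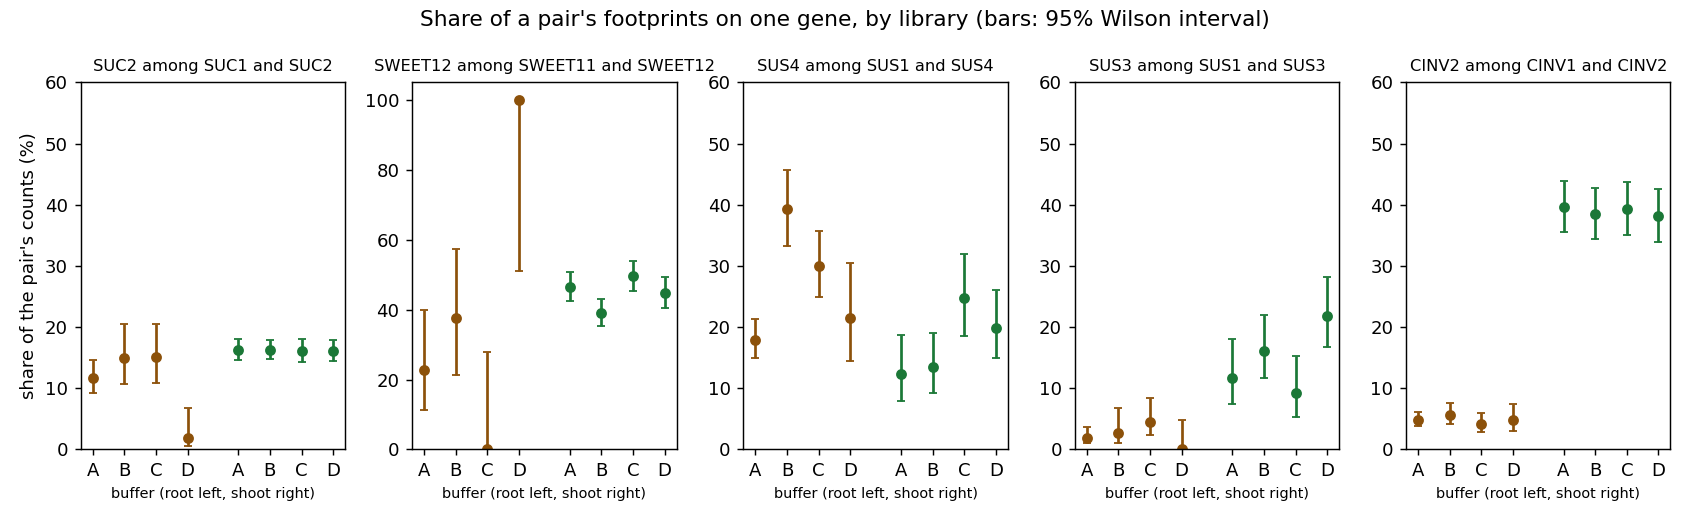
Share of the counts of a paralog pair, in percent, in each of the 4 root and 4 shoot libraries, with bars for the 95% Wilson interval, which covers counting error only. The CINV2 share is near 5% in root and near 39% in shoot, and the SWEET12 share spreads from 0 to 100% in root.

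None of the 10 genes was called for a buffer effect, whichever test was used. Of the 15664 genes tested, 9 (0.0575%) were called for any of the 4 buffers, 0 (0%) for A minus C, 7 (0.0447%) for D minus B and 0 (0%) for a salt slope that differed between the tissues. At an unadjusted p under 0.05 there were 122, 254, 312 and 618 genes, none of the 10 among them, and DESeq2 called 29, 0, 17 and 0. Each of the unadjusted counts is below what that threshold gives by chance over 15664 genes. With 1 library per tissue and buffer, and 3 residual degrees of freedom, a modest buffer effect could be missed. In A minus C, the highest against the lowest salt, SUS4 was at -0.93 ± 0.59 (unadjusted p = 0.147 by edgeR) and SUC1 at 0.31 ± 0.22 (unadjusted p = 0.187). In D minus B, lower against higher Tris, SWEET11 was at -0.76 ± 0.57 and SUC2 at -0.68 ± 0.54. CINV1, the gene with the smallest SE, was at -0.00 ± 0.18 in A minus C, while SUS3 had an SE of 1.32 there, so that for SUS3 the buffer comparison was the least precise of the 10.

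**Figure D5:**
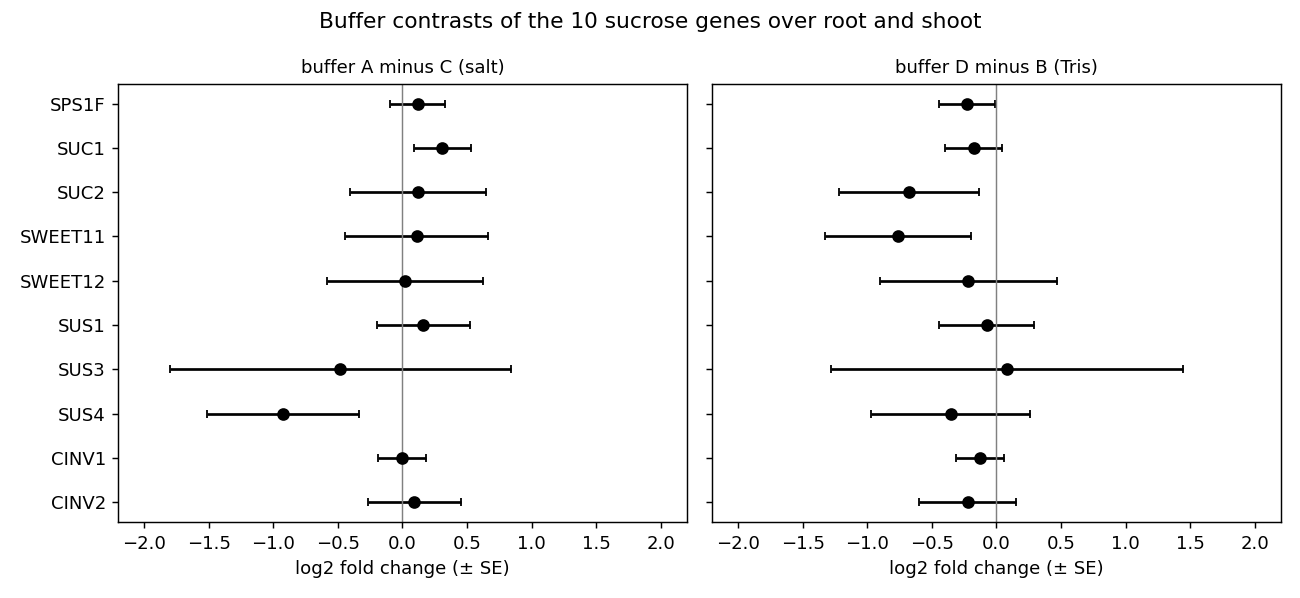
Log2 differences between buffers for the 10 genes with their standard errors, for buffer A minus C and D minus B. The differences lie between -0.93 and 0.31, and none was called.

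The genes whose pattern over the 8 libraries lay nearest to each of the 9 called genes were found by the Euclidean distance of centred log2(CPM + 1), over 10936 genes, as a description that rests mainly on the shared tissue difference. For CINV2 they were AT1G10740 (0.22), CNGC1 (0.34) and AT2G04360 (0.37), and for CINV1 they were NRS/ER, TPS10 and ATK3 (0.32 to 0.33). SPS1F lay nearest to HOL1, TSO2 and DELTA-TIP (0.35 to 0.36), and SUC1 to AKR4C8 (0.41). SWEET11 lay nearest to ALB1 (0.58), SUC2 to IREG3 and MGD1 (both 0.62), and SWEET12 to AT2G42130 (0.65), NdhM and PGR5. SUS1 lay nearest to AT1G72730 (0.43) and ACA10 (0.48), and SUS4 to MYB7, at 0.81 the longest nearest distance of the 9.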

How the data were processed

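Ribosome footprints of root and shoot seedling tissue were measured in 8 libraries, 1 per tissue and buffer. The values the authors deposited are raw counts over the coding sequence of each gene, not normalized. Per the submitters' processing notes, Bowtie2, STAR 2.5.1b and TAIR10 were used, with no role stated. How reads were counted, and what was done with those matching several genes, is not given in the sources used here, so close relatives (SUC1 with SUC5, SUS1 with SUS4, SWEET11 with SWEET12, CINV1 with CINV2) may share reads. Names come from a RefSeq table of TAIR10.1, which matched 26719 of 27416 identifiers and all 109 list genes. Genes with no symbol there are given by identifier. No sequence or coding length was used.

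Counts were tested in R 4.3.3 with edgeR 4.0.16 (TMM, filterByExpr by tissue with a minimum count of 10 and total of 15, quasi-likelihood F test, terms tissue and buffer, 3 residual degrees of freedom), with Benjamini-Hochberg adjustment over 15664 genes and calls at 0.05. A second model gave the MgCl2 slope of each tissue, which KCl shares. SE is the absolute log2 fold change divided by the square root of F. DESeq2 1.42.0 was an alternative, and shares were tested with scipy 1.17.1. The procedure was tested on counts simulated with the same relative spread for all genes and as many genes raised as lowered. These data differ in both, so that test covers neither the scaling nor the error rate here. Deviations from the tissue mean were hardly correlated between root and shoot libraries of the same buffer (-0.0028 to 0.0218 over genes). The highest correlation with another buffer was 0.0055 to 0.0165. These deviations include counting error, so a pairing by buffer is not excluded. Intervals and floors (3 counts, per library for a level and over a tissue's 4 libraries for a fold) cover counting error only, since no molecular identifiers are described. Depth, given in the report, limits precision most in root. No RNA-seq was used, so mRNA level and translation are not separated.

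The 10 genes and all lists were chosen with earlier results of these data known. All 10 are reported, with the called genes of the pathway, phloem and low-oxygen lists and some that were not called, and for likeness the 3 nearest genes with a mean of at least 10 CPM. Alternatives were other scalings, DESeq2, other filters, no buffer term and each library left out.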

Additional observations from a re-analysis of the deposited data

Results flagged for a closer look

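One value among 30 sets of 4 libraries stood apart from the rest of its set: the SUC2 level in root in buffer D, 1.46 CPM, whose gap to the next root library was 0.89 of the whole range, above Dixon's 95% critical value for 4 values. It rests on 2 counts, where the other 3 root libraries predict 21.6 at its depth. Chance flags about 1 set in 20. In that library SWEET11 and SUS3 had 0 counts, and SPS1F, SUC1, SUS1, SUS4 and CINV1 had their lowest root level.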

How the results depend on the processing

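The call of 9 of the 10 genes, 3 higher in root and 6 higher in shoot, held under all 7 other scalings, tools, filters and terms tried, and the direction of each held in those and in all 8 left-out libraries. SUS1 and SUS4 lost their calls in 5 of the left-out fits, with the values given above. All genes called went from 2780 and 3537 (higher in root and in shoot) to 4734 and 2692 with library totals alone and to 3102 and 4022 with DESeq2. Without the buffer term, that is with no replicate block for the pairing of tissues by buffer, 7019 genes were called in all beside 6317, and the 9 genes kept their calls (log2 fold change 1.78 for CINV1, -2.76 for SUC2 and 1.02 for SUS1). Left-out libraries gave 5266 to 6104 genes. Genes called for any buffer were 9, and 14 with library totals alone, 29 with DESeq2 and 23 without the filter. For D minus B they were 7, 17 with DESeq2 and 15 without the filter. For the tissue difference in salt slope they were 0, and 2 without the filter. The cause of these moves was not tested. Scaling per kilobase of coding sequence was not run, since coding lengths were not used here. Root counts per library were under 30 for SWEET11, SWEET12 and SUS3.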

Other observations

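The spread between libraries differed among the 10 genes. The variance of CINV2 over the 4 shoot libraries was 0.177 times that of counting alone (777 counts), that of CINV1 in shoot 0.717 times (1220 counts), and that of SPS1F in root 0.948 times (652 counts). It was 16.2 times for SUS1 in root (864 counts), 15.9 times for SUC1 in shoot (6186 counts) and 13.1 times for SUC1 in root (944 counts). These are descriptions of 4 libraries each, which differ in buffer, and have no test.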
